A study of Gallus gallus with 6 samples.

Results

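miR-26a is described here in the abdominal fat of broilers, meat-type chickens (Gallus gallus), at day 35. Rows were chosen by name, as every row of the deposited table whose name is miR-26a with or without an arm or copy suffix. This gave 2 of the 667 miRNA rows, gga-miR-26a-5p and gga-miR-26a-3p, and both passed the low-count filter that left 238 rows for testing. miR-26a was picked out because miR-26a-5p leads these libraries, so its levels are given as a description with no test of their height.

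The small RNA libraries fall into 3 from birds labelled 50 IU VE, where VE is vitamin E, and 3 labelled control. All are whole abdominal fat from female chicks of 1 feeding study of 240 birds on 5 diets with graded amounts of DL-α-tocopherol acetate. The dose of the control diet is not printed beside its samples, and nothing on the strain, the library kit or the birds behind each library is stated in the labels. The p-values thus reflect library-to-library spread alone, part or all of which may be technical. Whole tissue holds several cell types, so fewer cells of a type and less of the miRNA per cell cannot be told apart.

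A miRNA is cut from a hairpin precursor whose 5′ and 3′ sides can each give a mature strand, named 5p and 3p. Usually one strand, the guide, is kept in an Argonaute protein and represses target mRNAs, while the passenger strand is broken down. miR-26 genes lie inside genes of the CTDSP family, small phosphatases that act on the C-terminal domain of RNA polymerase II. In human and mouse cells miR-26a represses EZH2, the methyltransferase of the Polycomb complex, and in human fat cells the miR-26 family has been reported to promote differentiation and a thermogenic programme through the protease ADAM17. In chicken it has been studied as a miRNA reduced in Marek's disease lymphoma.

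The gene table of assembly GRCg7b lists 2 chicken miR-26a genes. MIR26A1 lies within CTDSPL and MIR26A-2 lies within CTDSP1, and 0 other miRNA genes lie within 10 kb of either. The deposited table has 1 row for the 5p arm and 1 for the 3p arm, with no copy number, so counts could not be divided between the genes. Whether the 3p row holds reads of both genes is not stated. In the arm ratios below the 2 arms may therefore cover different genes. Coordinates are not printed, because no source used here names the build behind the deposited counts.

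Library totals ran from 5844435 to 7062595 counts with vitamin E and from 5028671 to 7357204 in control. TMM scaling factors, which correct for differences in composition, were 1.01 to 1.05 with vitamin E and 0.860, 1.00 and 1.03 in controls 1, 2 and 3. Control 1 therefore stood apart from the other libraries, and its CPM, counts scaled to a library size of 1000000, were raised most by the scaling. No miRNA is known that only fat cells make. Markers of other cells were present, and their lists are given as summed TMM CPM. The leukocyte list ran from 31800 to 40829 with vitamin E and from 30268 to 51024 in control. Its largest row was miR-146c-5p, at 15361 to 31147 CPM over the 6 libraries. The smooth muscle and stromal list ran from 62062 to 70816 with vitamin E and from 56296 to 89013 in control. The latter sum rests on 3 rows, of miR-199 and miR-214. Its other names, miR-143 and miR-145, matched no row. The endothelial marker miR-126 ran from 20879 to 29955 and from 24416 to 35488. The erythroid list ran from 3098 to 5294 with vitamin E and from 1405 to 3283 in control, which overlap. The striated muscle list held 301 to 583 with vitamin E and 276 to 518 in control. The epithelial list held 320 to 393 and 312 to 428. All 5 tested muscle rows were higher with vitamin E, beside 45.8% over all 238 tested rows. Of the 7 tested epithelial rows 5 were higher and 2 lower. An unadjusted p under 0.05 (edgeR quasi-likelihood) was found for 1 muscle row and 2 epithelial rows, beside 7.56% of all tested rows. The epithelial 2 were miR-200b-3p, higher, and miR-205b, lower. After Benjamini-Hochberg adjustment 0 of either list passed. The intestinal list held 108 to 165 with vitamin E and 100.1 to 917 in control, with the 917 in control 2. The nervous system and endocrine list summed to 164 to 183 with vitamin E and to 34.3 to 50.2 in control. Of its 5 tested rows, 4 were higher with vitamin E and 1, miR-375, was lower (log2 fold change -1.07), beside 45.8% higher over all 238 tested rows. An unadjusted p under 0.05 was found for 4 of the 5, beside 7.56% of all tested rows (edgeR quasi-likelihood). After Benjamini-Hochberg adjustment 1 of the 5 passed, beside 0.42% of all tested rows. The liver list, with 1 tested row, ran from 5.24 to 7.31 with vitamin E and from 12.4 to 20.8 in control. That row, miR-122-5p, had a log2 fold change of -1.40 and did not pass (edgeR quasi-likelihood, unadjusted p = 0.0109, Benjamini-Hochberg adjusted p = 0.325). Of all tested rows, 5.04% had the vitamin E libraries all below the controls on TMM CPM. The part of these cells in the miR-26a values was not tested.

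miR-26a-5p, the guide arm, was the most abundant row in all 6 libraries. It had 934673, 1097268 and 903918 counts in vitamin E libraries 1, 2 and 3, and 1183474, 906362 and 1178420 counts in controls 1, 2 and 3. As a share of all counts this was 16.0%, 15.5% and 14.8% with vitamin E and 17.8%, 18.0% and 16.0% in control. At this depth the Wilson 95% interval of each share was narrow, for example 14.8% to 14.9% in vitamin E 3. These intervals hold the counting error of reads alone. Whether molecular identifiers were used is not stated, and where several reads come from 1 molecule the intervals are too narrow.

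Over the 6 libraries the share of miR-26a-5p was 16.4% ± 1.26 (SD, n = 6). It made up 22.0% to 27.1% of the counts of the 10 most abundant miRNAs, which together took 65.6% to 72.5% of a library. The second in mean share was miR-10a-5p, a miRNA encoded in a Hox gene cluster, at 10.6% ± 1.96 (SD, n = 6). The third was the predicted miRNA novel_1, at 9.77% ± 2.31 (SD, n = 6). Both ranged widely, miR-10a-5p from 9.08% to 13.6% and novel_1 from 7.0% to 13.8%, so the order between these neighbours was not fixed. All the other leading miRNAs lay below miR-26a-5p in 6 of 6 libraries.

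The lead of miR-26a-5p over the next miRNA differed between libraries more than its own share did. The ratio to the next row was 1.27, 1.71 and 1.09 with vitamin E, where miR-10a-5p came next each time. In control it was 1.88 over miR-10a-5p in library 1, and 1.68 and 1.16 over novel_1 in libraries 2 and 3. The lead was smallest in vitamin E 3 and control 3, which are also the libraries where miR-10a-5p and novel_1 had their highest shares.

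Further down the order came miR-22-3p at 6.68% ± 0.54, miR-199-3p at 6.22% ± 1.37 and miR-148a-3p at 5.25% ± 1.35 (SD, n = 6). miR-10b-5p followed at 4.18% ± 0.96 and let-7f-5p at 3.24% ± 0.46 (SD, n = 6). miR-30e-5p stood at 2.72% ± 0.77 and miR-126-3p, the miRNA of endothelial cells, at 2.67% ± 0.33 (SD, n = 6). The ranges of each neighbouring pair from miR-10a-5p downward overlapped, so among the leading 10 only the place of miR-26a-5p held in every library.

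**Figure D1:**
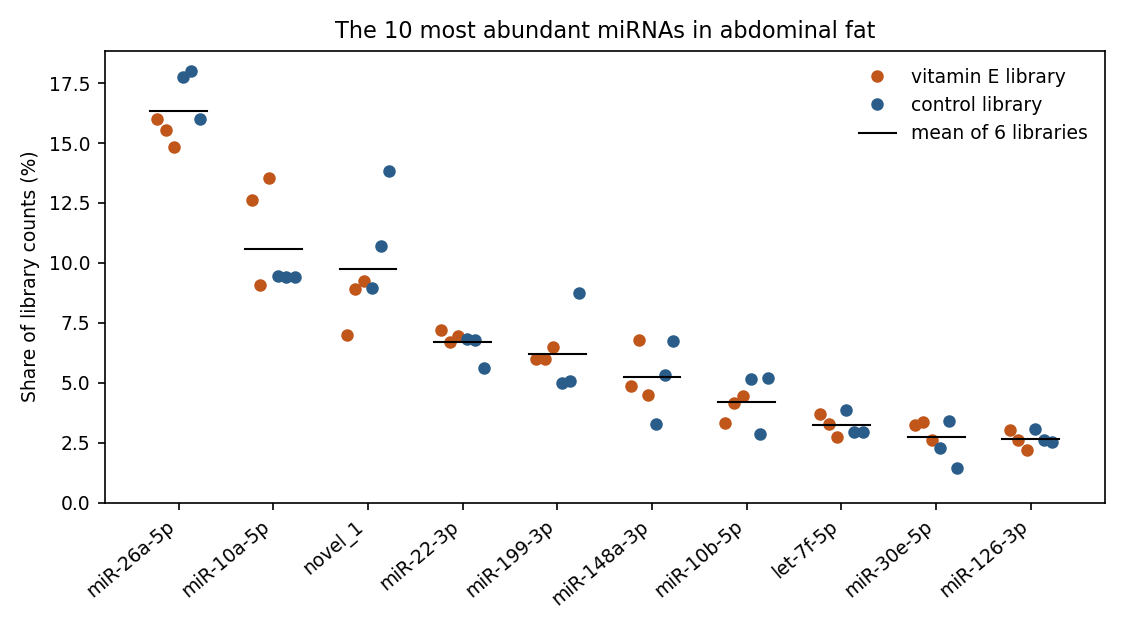
Share of library counts (vertical axis, %) of the 10 most abundant miRNAs, with 1 point for each of the 3 vitamin E and 3 control libraries and a line at the mean of the 6. miR-26a-5p lies between 14.8% and 18.0%, and no other miRNA reaches above 13.8%.

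When rows sharing a number in their names were summed, a grouping chosen after values were seen, the 2 miR-26 rows remained first on average at 16.4% ± 1.26 of counts (SD, n = 6). The 4 miR-10 rows summed to 14.8% ± 2.03 (SD, n = 6). miR-26 exceeded miR-10 in 5 of 6 libraries. In vitamin E 3 the order turned, with 18.1% for miR-10 and 14.8% for miR-26, and in vitamin E 1 both stood at 16.0%. The 14 let-7 rows summed to 8.10% ± 1.05 and the 10 miR-30 rows to 7.37% ± 1.30 (SD, n = 6).

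The share of miR-26a-5p varied little between libraries. Its coefficient of variation over the 6 libraries was 7.73% on the authors' TPM scale, the lowest of the 238 tested rows, whose median was 35.7%. On TMM CPM it was 14.7%, the 12th lowest, beside a median of 36.1%. Among the 48 tested rows with a mean of at least 1000 TPM it was lowest on the TPM scale and 8th lowest on TMM CPM. The place therefore depended on the scaling. The coefficients are descriptions of these libraries.

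The contrast of vitamin E with control asks whether the leading fat miRNA differs with the supplement. On the share scale all 3 vitamin E libraries lay below all 3 controls, with means of 15.5% ± 0.59 and 17.3% ± 1.09 (SD, n = 3 each). The difference was -1.81 percentage points (two-sided exact permutation p = 0.1, the smallest that 20 relabellings allow, and 0.2 after Benjamini-Hochberg adjustment over the 2 permutation tests run). The groups were parted by 0.025 percentage points, between vitamin E 1 and control 3. The Wilson intervals of those libraries, 15.96% to 16.02% and 15.99% to 16.04%, overlapped. Of the 238 tested rows, 2.1% had vitamin E libraries all below the controls on this scale.

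On TMM CPM the groups overlapped, and 5.04% of the tested rows had all vitamin E libraries below the controls on this scale. miR-26a-5p stood at 157883, 148104 and 140680 CPM with vitamin E and at 206299, 179441 and 155027 CPM in control. Control 3 lay below vitamin E 1, and control 1, the library with the lowest scaling factor, stood highest. The means were 148889 ± 8628 and 180256 ± 25646 CPM (SD, n = 3 each).

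miR-26a-5p did not pass the test of the difference. Its fitted log2 fold change, vitamin E over control, was -0.28, with an SE of 0.18 and a 95% interval of -0.70 to 0.14. This is a ratio of 0.826 with an interval of 0.617 to 1.11, and the adjusted p was 0.738 (edgeR quasi-likelihood, Benjamini-Hochberg over 238 rows). The unadjusted p of 0.170 was the 51st smallest. In the same test 0.42% of the rows passed, and the median log2 fold change over all of them was -0.07. Of the 238 rows, 94 had a smaller absolute log2 fold change than miR-26a-5p. The interval of the ratio includes 1, so a difference was not established in this test.

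**Figure D2:**
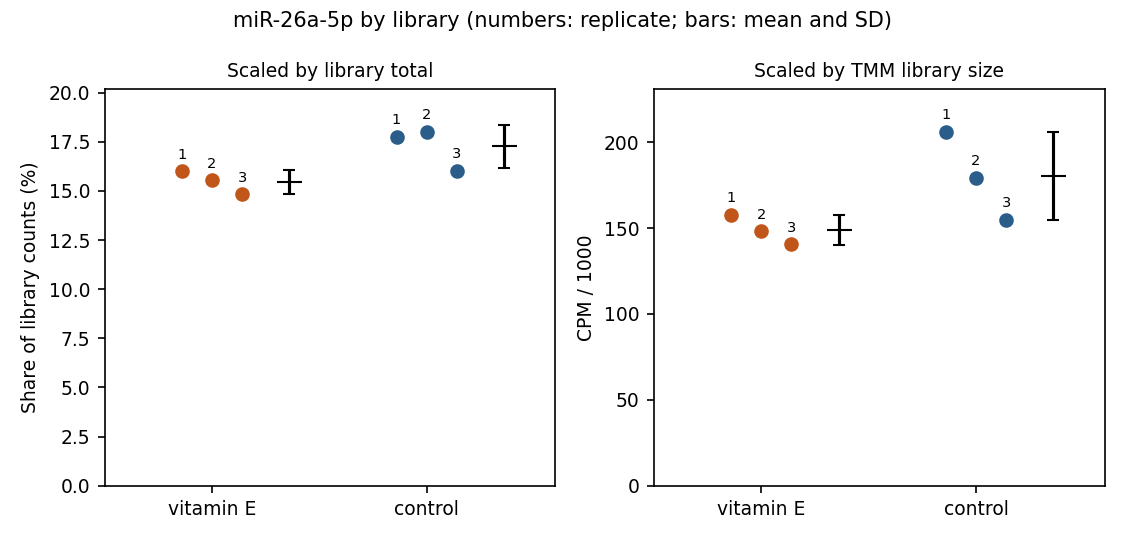
miR-26a-5p in each library (points, numbered by replicate) with mean and SD beside them, as a share of library counts in % (left) and as TMM CPM divided by 1000 (right). The vitamin E libraries lie at or below 16.0% and the controls at or above 16.0%, parted by 0.025 percentage points, while on TMM CPM control 3 lies below vitamin E 1.

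miR-26a-3p, the passenger arm, was rare. It had 60, 83 and 170 counts in vitamin E libraries 1, 2 and 3, and 99, 69 and 65 counts in controls 1, 2 and 3. On TMM CPM this was 10.1, 11.2 and 26.5 with vitamin E and 17.3, 13.7 and 8.55 in control. Vitamin E 3 stood highest, the other vitamin E libraries lay among the controls, and the groups overlapped. Even so, 500 to 526 of the 667 rows held fewer counts than the 3p arm in a given library.

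The 3p arm did not pass the test either. It averaged 15.9 ± 9.13 CPM in the vitamin E libraries and 13.2 ± 4.37 CPM in the controls (SD, n = 3 each). Its fitted log2 fold change was 0.28, with an SE of 0.52 and a 95% interval of -0.92 to 1.48 (edgeR quasi-likelihood, Benjamini-Hochberg adjusted p = 0.899). The sign rested on 1 library: without vitamin E 3 it was -0.36 (edgeR quasi-likelihood, adjusted p = 0.935). The arms gave log2 fold changes of opposite sign, and over the 6 libraries their log2 CPM had a Pearson r of 0.03, a description of libraries that share depth and scaling.

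Of all reads from the 2 arms, the 3p arm made up 0.00642%, 0.00756% and 0.0188% with vitamin E. In control it made up 0.00836%, 0.00761% and 0.00552%. The exact 95% intervals were 0.0161% to 0.0219% in vitamin E 3 and reached at most 0.0102% in any other library, so vitamin E 3 lay outside the counting error of the others. In numbers of reads, 15578, 13220 and 5317 5p reads stood against each 3p read with vitamin E, and 11954, 13136 and 18130 in control.

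The log2 ratio of 5p to 3p was 13.3 ± 0.83 in the vitamin E libraries and 13.8 ± 0.31 in the controls (SD, n = 3 each). The difference of -0.46 did not hold against the spread (two-sided exact permutation p = 0.6, also 0.6 after adjustment over the 2 tests), and without vitamin E 3 it was 0.02 (exact permutation p = 1). The groups overlapped, with vitamin E 3 lowest at 12.4 and control 3 highest at 14.1.

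Among the 139 hairpins with both arms in the table, miR-26a had the mean log2 ratio in place 3 of the major over the minor arm, 13.6 against a median of 3.33. Above it stood miR-126, at 17.8 with 2 counts in all for its minor arm, and let-7f, at 14.4 with 68. The minor arm of miR-26a rested on 546 counts, in a row that may not cover both of its genes. A ratio can be no higher than the counts of the major arm allow, and miR-26a was picked for the height of that arm. Its place is therefore a description. Hairpins with few counts in both arms, such as miR-7471 with 1 each, have ratios near 0 and lower the median. Among the 51 hairpins with at least 60 counts for the minor arm, miR-26a stood in place 2. Other leading hairpins were less one-sided, at 11.01 for miR-22, 10.5 for miR-10b, 8.04 for miR-148a and 7.45 for miR-10a. The lowest of this group were miR-30e at 5.02 and miR-199 at 3.46, both arms of which are found in quantity.

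The drop of the ratio in vitamin E 3 was set beside the other hairpins. Among the 51 with at least 60 counts for the minor arm, 8 had their lowest ratio in vitamin E 3, and 17 each in control 1 and in control 3. The median ratio over these hairpins was 4.78 in vitamin E 3 and 4.65 to 5.17 in the other libraries. miR-26a ranged over 1.76 log2 units between libraries, beside a median range of 1.45, and 17 hairpins ranged more widely. Of the leading miRNAs, miR-22, miR-148a and miR-199 also had their lowest ratio in vitamin E 3. The others had it elsewhere, miR-10a, miR-10b and miR-30e in control 3, let-7f in control 1 and miR-126 in vitamin E 2.

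**Figure D3:**
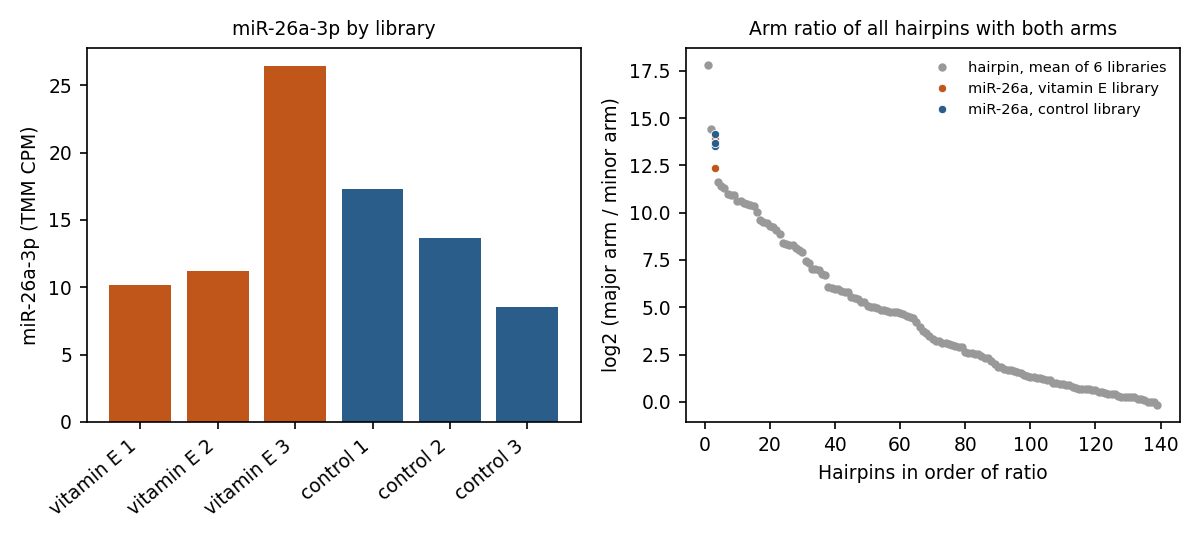
Left, miR-26a-3p in TMM CPM in each library (bars), highest in vitamin E 3 at 26.5. Right, log2 ratio of the major to the minor arm for 139 hairpins in order (grey, mean of 6 libraries), with miR-26a shown library by library at place 3, where vitamin E 3 is the low point at 12.4.

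The rows whose log2(CPM + 1) ran most like that of miR-26a-5p over the 6 libraries were miR-1306-3p (Pearson r 0.91), miR-30c-2-3p (0.90), miR-3529 (0.88), miR-18a-3p (0.85) and miR-301b-5p (0.85). All 5 stood highest in control 1, as miR-26a-5p did on this scale. 4 of them had means of 2.64 to 4.17 CPM, and miR-30c-2-3p, a passenger arm of the miR-30 family, stood at 220 to 226 CPM with vitamin E and at 430, 256 and 249 in control. Without the TMM factors, on log2(TPM + 1), r was 0.60 to 0.78 for the 5. The least alike were miR-429-3p (-0.96), an epithelial miRNA of the miR-200 family, miR-133b (-0.95), a muscle miRNA, and miR-460a-3p (-0.95). On log2(TPM + 1) their r was -0.90, -0.87 and -0.79. miR-133b and miR-460a-3p had low means, of 3.88 and 4.39 CPM. miR-429-3p stood at 50.0, 42.5 and 68.5 CPM with vitamin E and at 17.6, 27.3 and 45.4 in control. These correlations describe 6 libraries that share a scaling step, and were taken from 237 rows.

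A list of 36 miRNA names tied in mammals to fat cell differentiation and thermogenesis was set beside miR-26a. Of these names, 28 matched a row exactly, arm and copy suffixes aside. The names miR-203 and miR-222 did not, so the rows miR-203a, miR-222a and miR-222b-3p were left out. Of the 47 tested rows matched, 25 were above 0 and 22 below, with a median log2 fold change of 0.04 beside -0.07 over all tested rows. The split moved with the scaling, to 20 above and 27 below with upper-quartile factors and to 33 and 14 with limma on log2(TPM + 1). The edgeR quasi-likelihood test passed 0 of them, beside 0.42% of all tested rows. An unadjusted p under 0.05 was found for 3 of the 47, beside 18 of all 238 (7.56%), and DESeq2 passed 1 of the 47, beside 7 of 238 (2.94%). These shares are near those over all rows. The most abundant members were miR-22-3p at 67030 CPM, miR-148a-3p at 51996 and miR-30e-5p at 27206, averaged over the 6 libraries, so that miR-26a-5p stood 2.46, 3.17 and 6.05 times as high.

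The smallest p on the list belonged to miR-193b-3p, from a miRNA cluster needed for brown fat differentiation in mouse cell culture. It stood at 416, 205.3 and 344 CPM with vitamin E and at 130, 123 and 92.4 in control. Its log2 fold change was 1.48 (SE 0.34, edgeR quasi-likelihood, Benjamini-Hochberg adjusted p = 0.138), and it did not pass in 15 of 18 alternatives. With 1 library left out its adjusted p was 0.158 to 0.829 (edgeR quasi-likelihood). It passed without the low-count filter (edgeR, adjusted p = 0.0110), in DESeq2 (0.00919) and with the replicate number as a block (edgeR, 0.0488). miR-128-3p, a miRNA also abundant in brain, had -1.18 (SE 0.47), with control 1 at 13621 CPM and controls 2 and 3 at 3277 and 6416. Without control 1 it was at -0.61 (edgeR quasi-likelihood, adjusted p = 0.641), and with all libraries it passed without the filter (edgeR quasi-likelihood, adjusted p = 0.0138). miR-22-5p, the passenger arm of miR-22, had 0.89 (SE 0.38). In the reported fit their adjusted p were 0.504 and 0.605 (edgeR quasi-likelihood, Benjamini-Hochberg).

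**Figure D4:**
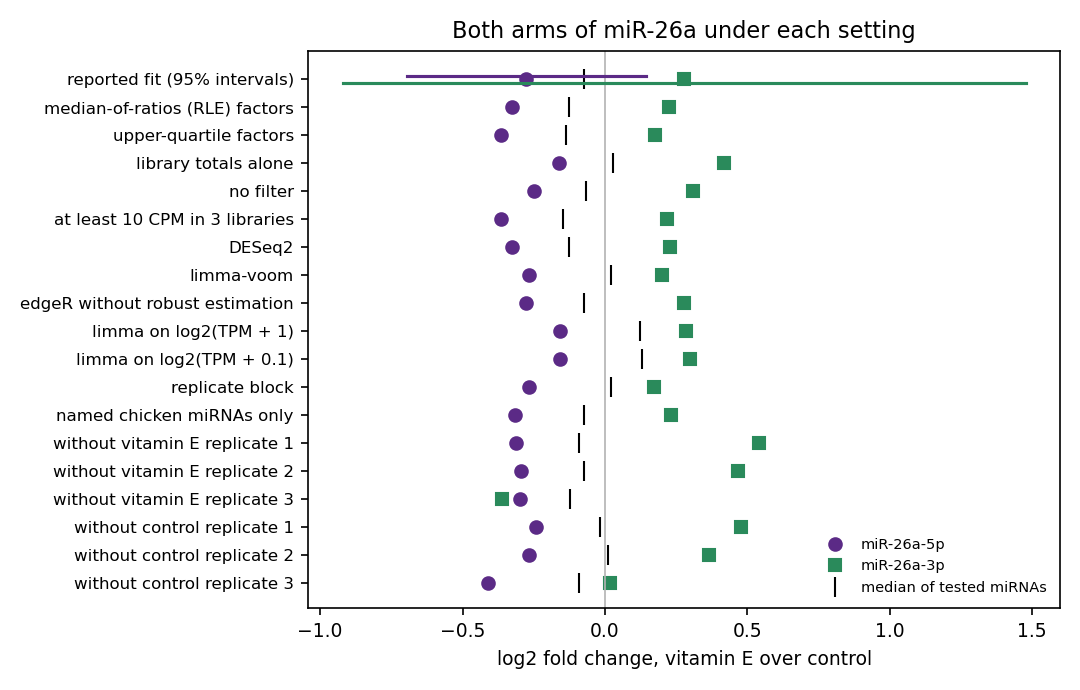
Log2 fold change of vitamin E over control for miR-26a-5p (circles) and miR-26a-3p (squares) in the reported fit, with 95% intervals, and in 18 alternatives, with the median of the tested miRNAs as a tick. miR-26a-5p stays between -0.41 and -0.16, and miR-26a-3p falls below 0 without vitamin E replicate 3.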

How the data were processed

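Small RNA of abdominal fat was measured in 6 libraries, 3 per treatment label. Per the file headers, the authors deposited a read count, a whole number, for each mature miRNA. Their deposited TPM is the count divided by its library total and multiplied by 1000000, without correction for length. For the aligner, counting rule, miRNA reference and build, nothing is given in the sources used here. The comparison used edgeR 4.0.16 in R 4.3.3 on the whole table. Settings were TMM factors, filterByExpr with a minimum count of 10 and a total of 15, and a robust quasi-likelihood F test. Benjamini-Hochberg adjustment ran over 238 rows, with a threshold of 0.05. The fit was also run on simulated counts with changes larger than that of miR-26a-5p. That run does not bear on differences as small as that of miR-26a-5p. CPM are on TMM-scaled library sizes. Arm ratios add 0.5 to each count. Single values were compared by exact permutation with scipy 1.17.1. Alternatives were other scalings and filters, DESeq2 1.42.0, limma 3.58.1, a replicate block and leaving out each library. miRNAs named are the leading 10, the 5 most and 3 least alike, and of the fat cell list the 3 most abundant and the 3 with the smallest p. The row and the lists were chosen with earlier results of these data known. The planned grouping by shared seed was not made, as no miRNA sequences were used here.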

Additional observations from a re-analysis of the deposited data

How the results depend on the processing

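miR-26a-5p was below 0 and not called in all 18 alternative fits, with log2 fold changes from -0.41 to -0.16 and adjusted p from 0.465 to 0.982 (edgeR, DESeq2 or limma, Benjamini-Hochberg). Leaving out 1 library gave -0.41 (without control 3) to -0.24. The median log2 fold change over all tested rows was -0.07 in the reported fit and 0.03 with scaling by totals alone. It was 0.12 with limma on log2(TPM + 1) and 0.13 with limma on log2(TPM + 0.1). Relative to the median of its own fit, miR-26a-5p stood at -0.32 to -0.17. Its share remained lower with vitamin E under the other denominators, with differences of -2.60 percentage points over named miRNAs, -3.14 over TMM-scaled and -4.15 over upper-quartile-scaled sizes, and -8.12 as a percentage of the counts outside the 10 most abundant, beside -1.81 as reported. It was lower by 1.43 to 2.44 percentage points when 1 library was left out (differences of -1.43 and -2.44). With TMM-scaled sizes, where the groups overlapped, the exact permutation p was 0.2. Over the other denominators the groups did not overlap (exact permutation p = 0.1 each, the smallest possible). For named miRNAs the highest vitamin E library stood at 173561 per 1000000 and the lowest control at 187684. With upper-quartile-scaled sizes these were 150652 and 156615. The part of all rows separated in this way on these scales was not computed. Without vitamin E 3 the arm ratio difference turned to 0.017 and the miR-26a-3p log2 fold change to -0.36, within ranges over left-out libraries of -0.75 to 0.017 and -0.36 to 0.54; the latter was 0.02 without control 3.

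The number of rows called, 1 of 238 in the reported fit, was 0 of 238 with upper-quartile factors (edgeR, 18 with an unadjusted p under 0.05). It was 8 of 667 without the filter, 7 of 238 with DESeq2, 3 of 238 with limma on log2(TPM + 1) and 5 of 238 with the replicate block. When 1 library was left out it was 0 to 1, of 247 to 251 tested rows. The cause was not tested. Libraries with the same number showed no shared deviation (correlations -0.17, 0.00 and -0.02), so the numbers were not taken as pairs. With the replicate block miR-26a-5p was at -0.27 (edgeR adjusted p = 0.975) and miR-26a-3p at 0.17. Paired sign flips gave an exact p of 0.25, the smallest possible, for the share and of 1 for the arm ratio. With 1 listed 3p row, the planned choice of a single 3p arm could give no other value. For the 3p arm, with 60 to 170 counts per library, the coefficient of variation over the 6 libraries was 45.3% on TMM CPM.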
